A study of Mus musculus with 225 samples.

Results

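Sox9, Sox5 and Sox6 are the 3 genes described here, of 23165 genes with a row in the count table. They were taken by name, with no measured value used in the choice, and all 3 had 1 row in the raw counts and 1 in the normalized table. SOX9 is the transcription factor that commits mesenchymal cells of the limb to cartilage: it is switched on in prechondrogenic condensations and binds DNA through an HMG box. SOX5 and SOX6 are close relatives of each other in the SoxD group, which lack a transactivation domain of their own and work as partners that strengthen SOX9 at cartilage enhancers. Col2a1, which encodes the main collagen of cartilage, is their best known common target, and Acan, Col9a1, Matn1 and Wwp2 are others.

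Single cells came from forelimbs of mouse embryos at embryonic day 12.5 that were heterozygous for Hoxd11::GFP, a tau-GFP knock-in at Hoxd11 on a mixed C57Bl6CBAF1 background, and every cell of both tissues carried that allele. The autopod (the future hand) and the zeugopod (the future forearm) were dissected apart, limbs were pooled, and sorting kept only the most strongly GFP-positive cells for capture in a Fluidigm C1 system, so the cells were chosen by GFP protein from the Hoxd11 allele and do not stand for the whole limb bud. After the authors' quality filter 76 of 96 autopod cells remained, 59 of the run NXT0072 and 17 of NXT0143, and 58 of 60 and 65 of 69 zeugopod cells of the runs NXT0142 and NXT0143. Hoxd11 RNA itself was under 5 reads in 9 autopod and 25 zeugopod cells of those retained. Percentages of a tissue are over both of its runs. Since no label ties a cell to an embryo, a tissue counts as a single pooled sample here: no test was run between tissues, and every interval given is an exact Clopper-Pearson 95% interval that covers counting error only.

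The retained cells held 186271 to 9437447 reads on genes, with a median of 3003655, and 1801 to 6162 genes with at least 1 read. Hoxd13, the Hox gene of the digits, was detected (at least 5 reads, the limit used throughout) in 54 of 59 autopod cells of NXT0072, in 11 of 17 autopod cells of NXT0143, in 1 of 58 zeugopod cells of NXT0142 and in 0 of 65 zeugopod cells of NXT0143, which allows a share of up to 4.62% (3 cells of the total). Hoxd13 was thus under 5 reads in 5 autopod cells of NXT0072 and in 6 of NXT0143. Hoxa13 was detected in 39 of 59 autopod cells of NXT0072 and in 6 of 17 of NXT0143. The paper also reports autopod cells with Hoxd11 mRNA and no Hoxd13 mRNA. Why Hoxd13 was missing from these autopod cells was not tested. The main values of the autopod cells of NXT0143 are given with and without the 6 cells that lacked Hoxd13. Of the lists of other cell types, no retained cell had at least 3 of 5 muscle, 3 of 5 epithelial or 3 of 4 endothelial markers, or at least 2 of 3 macrophage or 2 of 4 neural crest and glia markers. Only 1 of the 4 blood markers, Hba-x, had a row, so cells could not be screened for blood. At least 3 of the 5 chondrogenic markers Sox9, Col2a1, Acan, Col9a1 and Matn1 were detected in 35 autopod and 38 zeugopod cells, and Matn1 was under 5 reads in every autopod cell. Of the muscle, epithelial, endothelial, macrophage, and neural crest and glia markers, Myod1, Myog, Myf5, Krt5, Cdh5, Emcn and Aif1 stayed under 5 reads in every cell. The remaining markers of these lists were each detected in some cells. The summed epithelial markers reached 1442 reads per 1000000 reads on genes in an autopod cell and 1741 in a zeugopod cell. The summed neural crest and glia markers reached 407 at most. Single markers of other cell types were thus read, although no cell had the number required.

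On GRCm38 (GENCODE vM21 annotation) Sox9 (ENSMUSG00000000567) lies on the plus strand at chr11:112782224-112787760 and has 3 exons. Sox5 (ENSMUSG00000041540) lies on the minus strand at chr6:143828425-144781977, and Sox6 (ENSMUSG00000051910) on the minus strand at chr7:115470872-116038796. Reads of 75 bases were mapped, so the stretch where the 3 coding sequences are hardest to tell apart is shown here over 1 read length. It lies at the start of the HMG box and was taken as the 75-base window in which Sox9 and Sox5 are most alike, with the best matching window of Sox6. Bases that are the same in all 3 genes are in capitals.
Sox9: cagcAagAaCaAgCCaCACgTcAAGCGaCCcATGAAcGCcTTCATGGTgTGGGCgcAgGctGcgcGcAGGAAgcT
Sox5: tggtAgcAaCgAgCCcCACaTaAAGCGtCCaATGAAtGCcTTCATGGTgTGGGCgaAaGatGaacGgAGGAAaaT
Sox6: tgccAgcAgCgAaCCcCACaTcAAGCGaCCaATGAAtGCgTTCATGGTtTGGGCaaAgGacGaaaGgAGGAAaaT
The Sox9 window is in exon 1 at chr11:112782878-112782952, the Sox5 window in exon 13 at chr6:143841224-143841298 and the Sox6 window in exon 14 at chr7:115489713-115489787. Of the 75 bases 47 were the same in all 3, 55 in Sox9 and Sox5, 51 in Sox9 and Sox6, and 63 in Sox5 and Sox6. Over any ungapped 75-base window of the coding sequences, Sox9 differed from Sox5 by at least 20 bases and from Sox6 by at least 24, and Sox5 from Sox6 by at least 10. The longest run of identical coding bases was 18 for Sox9 and Sox5, 12 for Sox9 and Sox6 and 17 for Sox5 and Sox6. The antisense and intronic transcripts annotated inside the SoxD genes, which counts without strand cannot separate from their hosts, held few reads: Sox5os4 had at most 37 in a cell, Sox6os at most 55, and Sox5os1, Sox5os2, Sox5os3 and Sox5it at most 8.

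Sox9 was read in nearly all autopod cells and in about 2 of 3 zeugopod cells, whereas Sox5 and Sox6 were read in a smaller share of cells of both tissues and at far lower levels. Sox9 was detected in 72 autopod cells (94.7%, 87.1 to 98.5) and in 79 zeugopod cells (64.2%, 55.1 to 72.7). The zeugopod cells without it were mostly empty of Sox9 reads: 35 had 0 reads and 9 had 1 to 4, whereas all 4 autopod cells below the limit had 1 to 4 reads and no autopod cell had 0. Few cells stood near the limit, with 3 autopod and 4 zeugopod cells at 5 to 49 reads.

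Levels are given as the authors' normalized values: reads scaled by spike-in RNA, plus a constant going by the values, and divided by gene length in kb. Genes can thus be compared per length, and a gene without reads sits at a floor (0.242 for Sox9, 0.0765 for Sox5, 0.113 for Sox6 and 0.165 for Col2a1). The Sox9 level in autopod cells of NXT0072 ran from the floor of 0.242 to 9175 with a median of 943. In autopod cells of NXT0143 it ran from 19.3 to 2850 with a median of 723. In zeugopod cells of NXT0142 it ran from 0.242 to 6558 with a median of 281. In the zeugopod cells of NXT0143 the range was 0.242 to 2278 and the median 215. The groups thus fell in the order autopod NXT0072, autopod NXT0143, zeugopod NXT0142, zeugopod NXT0143, and all 4 overlapped: the ranges between the lower and upper quartile ran from 189 to 2487, 236 to 1241, 0.242 to 1394 and 0.242 to 694. Among cells in which Sox9 was detected the medians were closer, 952 in the autopod and 614 in the zeugopod, so much of the distance between the tissues lay in the share of cells with Sox9.

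Sox5 was detected in 41 of 76 autopod cells (53.9%, 42.1 to 65.5) and in 49 zeugopod cells (39.8%, 31.1 to 49.1), and these intervals overlap. By run the counts were 29 of 59 and 12 of 17 autopod cells, and 26 of 58 and 23 of 65 zeugopod cells. Its normalized level had a median of 0.306 and a highest value of 1415 in autopod cells of NXT0072, and a median of 31 and a highest value of 642 in those of NXT0143, where the median was 10.9 and 8 of 11 cells had Sox5 without the cells that lacked Hoxd13. Both zeugopod runs had their median at the floor of 0.0765, with highest values of 322 in NXT0142 and 398 in NXT0143. The 17 autopod cells of NXT0143 were the only group in which more than 2 of 3 cells had Sox5, and their interval, 44 to 89.7%, overlapped that of every other group.

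Sox6 was likewise more often read in the autopod, with 37 of 76 autopod cells (48.7%, 37.0 to 60.4) and 41 zeugopod cells (33.3%, 25.1 to 42.4), and the intervals again overlap. It was detected in 25 of 59 and 12 of 17 autopod cells and in 18 of 58 and 23 of 65 zeugopod cells by run. The median normalized level was 0.225 in autopod cells of NXT0072 (highest 2132) and 39.2 in those of NXT0143 (highest 1111), where it was 3.16, with Sox6 in 7 of 11 cells, without the cells that lacked Hoxd13. It was at the floor of 0.113 in both zeugopod runs (highest 611 and 1204). A few cells held most of the SoxD signal. Above the floor, 5 autopod cells carried 60.1% of the summed Sox5 level and 70.5% of the summed Sox6 level of their tissue, against 29.7% for Sox9. In the zeugopod the 5 leading cells carried 41.8%, 49.8% and 27.5% of Sox5, Sox6 and Sox9.

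**Figure D1:**
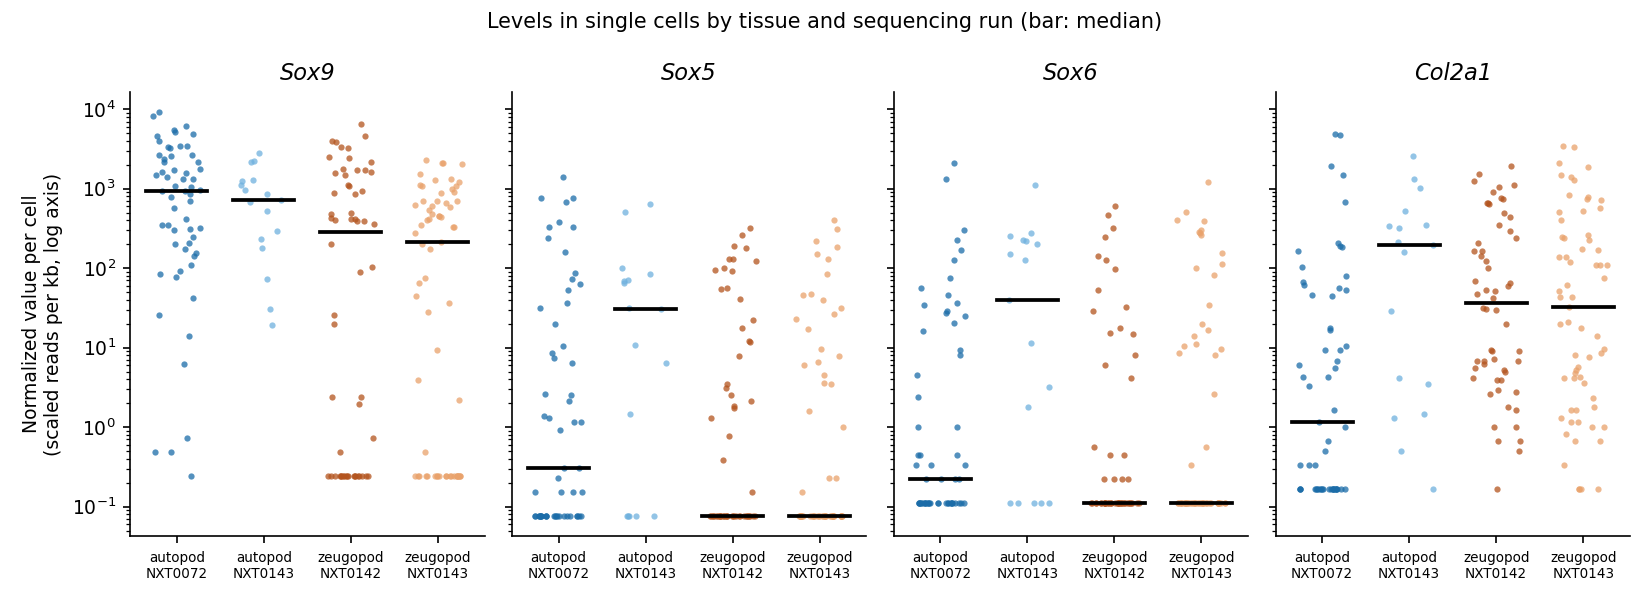
Normalized value of Sox9, Sox5, Sox6 and Col2a1 in each retained cell (points, log axis) by tissue and run, with the median as a bar. Sox9 medians were 943, 723, 281 and 215 from left to right, whereas the medians of Sox5 and Sox6 were at the floor in both zeugopod groups.

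Per length, Sox9 exceeded its partners within the same cell. Where both genes were detected, Sox9 was above Sox5 in 39 of 41 autopod and 45 of 47 zeugopod cells, with a median log2 ratio of the normalized values of 5.27 and 5.12. Sox9 was above Sox6 in 36 of 37 autopod and 37 of 39 zeugopod cells, with median log2 ratios of 5.51 and 4.04. Sox5 was above Sox6 in 11 of 27 autopod and 15 of 37 zeugopod cells that had both. The median log2 ratio of Sox5 to Sox6 was -1.49 and -1.40, and by run it was -1.58 and -0.56 in the autopod and -2.77 and -0.56 in the zeugopod, so Sox6 was more often the higher of the pair. The spread was wide, since the ratio spanned -8.68 to 8.35 in autopod cells and -7.28 to 7.84 in zeugopod cells.

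The tissues were compared as the difference of mean log2(normalized value + 1), autopod minus zeugopod, a scale that understates changes of low genes. A gene was included if 25% or more of the autopod or of the zeugopod cells detected it. Over these 4898 genes 6.06% were higher in the autopod by at least 1 log2 unit (a 2-fold difference), and 1 of the 3 members, Sox9, was among them. Sox9 averaged 8.93 in the autopod (SD over cells 3.0) and 5.78 in the zeugopod (SD 4.52), a difference of 3.14 that was above 99.9% of genes. Sox5 differed by 0.88, from 2.83 to 1.95, and Sox6 by 0.69, from 2.64 to 1.95, against a median of -0.12 over all genes. Col2a1 went the other way, at 3.68 in the autopod and 5.22 in the zeugopod.

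The Sox9 difference was of one size in both pairings of runs, whereas those of the SoxD genes depended on the run. In NXT0143, which held both tissues, the differences were 3.18 for Sox9, 2.24 for Sox5 and 2.38 for Sox6, so all 3 members were past 1 log2 unit beside 18.4% of all genes. Without the 6 autopod cells that lacked Hoxd13 they were 3.38, 1.99 and 1.92. Between autopod NXT0072 and zeugopod NXT0142, where tissue and run cannot be told apart, they were 3.07, 0.33 and 0.38, so 1 of 3 members was past the limit beside 6.64% of all genes. For Col2a1 the difference was -2.27 in that pairing (3.02 in the autopod, 5.30 in the zeugopod) and 0.80 in NXT0143 (5.96 and 5.16). Left to the 11 autopod cells of NXT0143 with Hoxd13, the Col2a1 mean was 4.34, 0.82 below the zeugopod of that run. The 6 cells left out all had Col2a1, from 162 to 2545 in normalized value, with Sox9 detected in 6, Sox5 in 4 and Sox6 in 5 of them.

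Sox5 and Sox6 were nested within Sox9. Of the 90 cells with Sox5, 88 also had Sox9 (97.8%, 92.2 to 99.7), and of the 78 with Sox6, 76 had it (97.4%, 91 to 99.7). In the autopod Sox9 was in 94.7% of all cells, so its presence in 41 of 41 cells with Sox5 and 37 of 37 with Sox6 says little. In the zeugopod Sox9 was in 64.2% of all cells, beside 47 of 49 with Sox5 and 39 of 41 with Sox6. Conversely 50 of the 151 cells with Sox9 had neither partner. At least 1 of the pair was found in 66.9% of the cells with Sox9 (58.8 to 74.3), compared with 3 of 48 cells without Sox9 (6.25%, 1.31 to 17.2). By run the share among cells with Sox9 was 36 of 55 and 15 of 17 in the autopod and 25 of 36 and 25 of 43 in the zeugopod, and without Sox9 it was 0 of 4 in the autopod, and 1 of 22 and 2 of 22 in the zeugopod.

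The 3 exceptions were all zeugopod cells. A cell of NXT0143 had 45 reads of Sox5, 0 of Sox6 and 0 of Sox9, and another of that run had 38 reads of Sox6 with 0 of both others. The remaining cell, of NXT0142, had 1938 reads of Sox6, 185 of Sox5 and 2 of Sox9, with 1628 of Col2a1. It was the cell with the fewest genes of all those retained, 1801, and had 842730 reads on genes.

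All 3 genes were detected together in 27 of 76 autopod cells (35.5%, 24.9 to 47.3) and in 36 zeugopod cells (29.3%, 21.4 to 38.1), with overlapping intervals. The zeugopod runs were close, at 17 of 58 and 19 of 65 cells, and the autopod runs were further apart, at 18 of 59 and 9 of 17, or 6 of 11 without the cells that lacked Hoxd13. The tissues differed more in the partial states. In the zeugopod 41 cells (33.3%) had none of the 3, against 4 (5.26%) in the autopod, and 14 zeugopod cells had Sox9 with a single partner, against 24 autopod cells. Put the other way, Sox5 was detected in 37 of 41 zeugopod cells with Sox6 (90.2%, 76.9 to 97.3) and in 27 of 37 autopod cells with Sox6 (73%, 55.9 to 86.2). Sox6 was found in 4 of 74 zeugopod cells without Sox5 and in 10 of 35 autopod cells without it. Those intervals, 1.49 to 13.3% and 14.6 to 46.3%, did not overlap. Many of these zeugopod cells also lacked Sox9, which was detected in 32 of the 74, against 31 of the 35 autopod cells. By run, Sox6 was in 7 of 30 autopod cells of NXT0072 without Sox5 (9.93 to 42.3%) and in 3 of 5 of NXT0143. The NXT0072 interval overlaps those of the zeugopod runs, with 0 of 32 (0 to 10.9%) and 4 of 42 (2.66 to 22.6%).

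**Figure D2:**
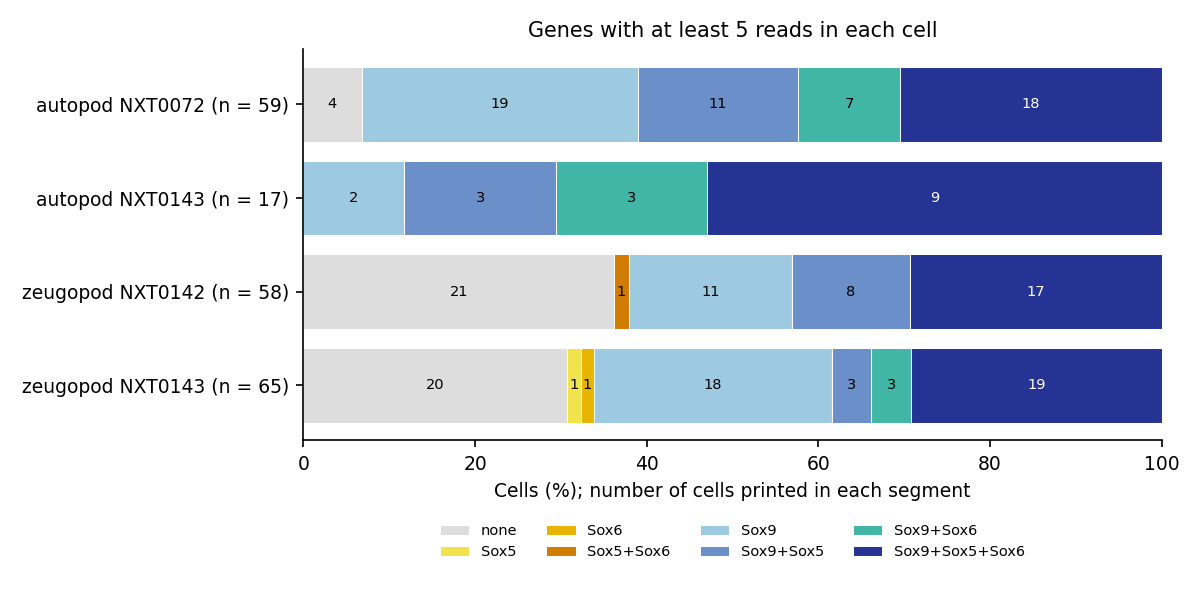
Share of cells (%) with each combination of Sox9, Sox5 and Sox6 at 5 reads or more, by tissue and run, with the number of cells printed in each segment. Yellow and orange segments, the SoxD genes without Sox9, hold 3 cells in all, and the dark segments are the 18, 9, 17 and 19 cells with all 3 genes.

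Cells with all 3 genes were also those with the most Sox9. The median normalized Sox9 level was 2139 in autopod cells with all 3 genes and 299 in autopod cells with Sox9 alone, and 1101 and 415 in the zeugopod. The cells with Sox9 were then split by its level into 3 classes of equal size within each tissue. Sox5 was detected in 7, 16 and 18 of 24 autopod cells from the lowest class to the highest, and Sox6 in 4, 16 and 17 of 24. In the zeugopod the counts were 12 of 27, 12 of 26 and 23 of 26 for Sox5, and 9 of 27, 10 of 26 and 20 of 26 for Sox6. The rise thus came between the lowest and middle class in the autopod, at Sox9 levels of up to 349 and from 349.6 to 1560. It came between the middle and highest class in the zeugopod, where the middle class spanned 411 to 1090. The median number of genes detected was 3566 in autopod cells with all 3 genes and 4050 in those with Sox9 alone, and 3768 and 4010 in the zeugopod. The median number of reads was 2804470 and 2481099 in the autopod, thus higher with all 3 genes, and 2983428 and 3137267 in the zeugopod, thus lower. The part of depth in these counts was not tested.

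Col2a1 (ENSMUSG00000022483, chr15:97975602-98004695, minus strand) was detected more often in the zeugopod. In the autopod, Col2a1 was detected in 43 of 72 cells with Sox9 (59.7%, 47.5 to 71.1) and in 0 of 4 without it, which allows a share of up to 75.0%. In the zeugopod it was detected in 73 of 79 cells with Sox9 (92.4%, 84.2 to 97.2) and in 39 of 44 cells without Sox9 (88.6%, 75.4 to 96.2), and these intervals overlap. The levels lay further apart: the mean log2(normalized value + 1) of Col2a1 was 6.14 in zeugopod cells with Sox9 (SD over cells 3.48) and 3.58 in those without (SD 2.54), and within runs it was 6.11 and 3.96 in NXT0142 and 6.16 and 3.19 in NXT0143. At a stricter limit of 50 reads Col2a1 was present in 52 of 79 zeugopod cells with Sox9 (65.8%, 54.3 to 76.1), in 18 of 44 without it (40.9%, 26.3 to 56.8) and in 33 of 72 autopod cells with Sox9 (45.8%, 34 to 58). The order of the tissues depended on the run. In NXT0143, which held both, 82.4% of autopod and 90.7% of zeugopod cells with Sox9 had Col2a1 at 5 reads. At 50 reads it was the autopod that had the higher share, with 12 of 17 cells (70.6%, 44 to 89.7) against 28 of 43 (65.1%, 49.1 to 79), and these intervals overlap. Without the cells that lacked Hoxd13 the autopod count was 6 of 11.

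Col2a1 counts just above the limit were more frequent in the zeugopod. Between 5 and 49 reads stood 42 zeugopod cells, 21 with and 21 without Sox9, and 10 autopod cells. Between 1 and 4 reads stood 7 zeugopod and 11 autopod cells, and 4 zeugopod and 22 autopod cells had 0 reads. Both zeugopod runs had cells at 5 to 49 reads, with 20 cells in NXT0142 and 22 in NXT0143. The autopod cells of NXT0143, which shared that run, had 2 of 17. Thinned to 500000 reads per cell, which left out 4 cells of each tissue, Col2a1 was detected in 69.7% of zeugopod cells against 91.6% of the same cells unthinned, whereas Sox9 went from 65.5% to 61.3%. How far low counts stem from the cells themselves was not tested.

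The median of Col2a1 was far higher in zeugopod cells with a SoxD gene than in the others. In the zeugopod every cell with Sox5 (49 of 49, 92.7 to 100%) and every cell with Sox6 (41 of 41, 91.4 to 100%) had Col2a1. Most cells without them had it too: 63 of 74 without Sox5 (85.1%, 75.0 to 92.3) and 71 of 82 without Sox6 (86.6%, 77.3 to 93.1). The intervals for Sox6 overlap. The median Col2a1 level in the zeugopod was 544 in the 36 cells with all 3 genes (0.990 to 3486) and 722 in the 3 with Sox9 and Sox6. It was 143 in the 11 with Sox9 and Sox5, 4.13 in the 29 with Sox9 alone (0.165 to 1235) and 6.77 in the 41 with none (0.165 to 1955). Cells with Sox9 alone thus had no higher median Col2a1 than cells with none of the 3. The pattern was alike in both runs, with medians of 438 and 567 in cells with all 3 genes and of 6.77 and 3.88 in cells with Sox9 alone. In zeugopod cells with a SoxD gene and no Sox9, Col2a1 was 8.09 with Sox5, 4.29 with Sox6 and 64.7 with both, 1 cell each.

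In the autopod the median of Col2a1 was highest with all 3 genes, at a level that differed between the runs. Col2a1 was detected in 19 of 27 cells with all 3 genes (70.4%, 49.8 to 86.2), in 9 of 10 with Sox9 and Sox6, in 8 of 14 with Sox9 and Sox5 and in 7 of 21 with Sox9 alone (33.3%, 14.6 to 57), with median levels of 166, 7.67, 3.71 and 0.330. In NXT0072 the medians were 35, 6.11, 3.30 and 0.330 in the same order, and in NXT0143 they were 317, 217, 4.13 and 1.82, the last 3 over 3, 3 and 2 cells. By run, Col2a1 was detected in 11 of 18 autopod cells with all 3 genes in NXT0072 and in 8 of 9 in NXT0143, or 5 of 6 without the cells that lacked Hoxd13. So 8 autopod cells read all 3 factors with Col2a1 under 5 reads, compared with 0 of 36 in the zeugopod, where 0 allows a share of up to 8.33%.

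**Figure D3:**
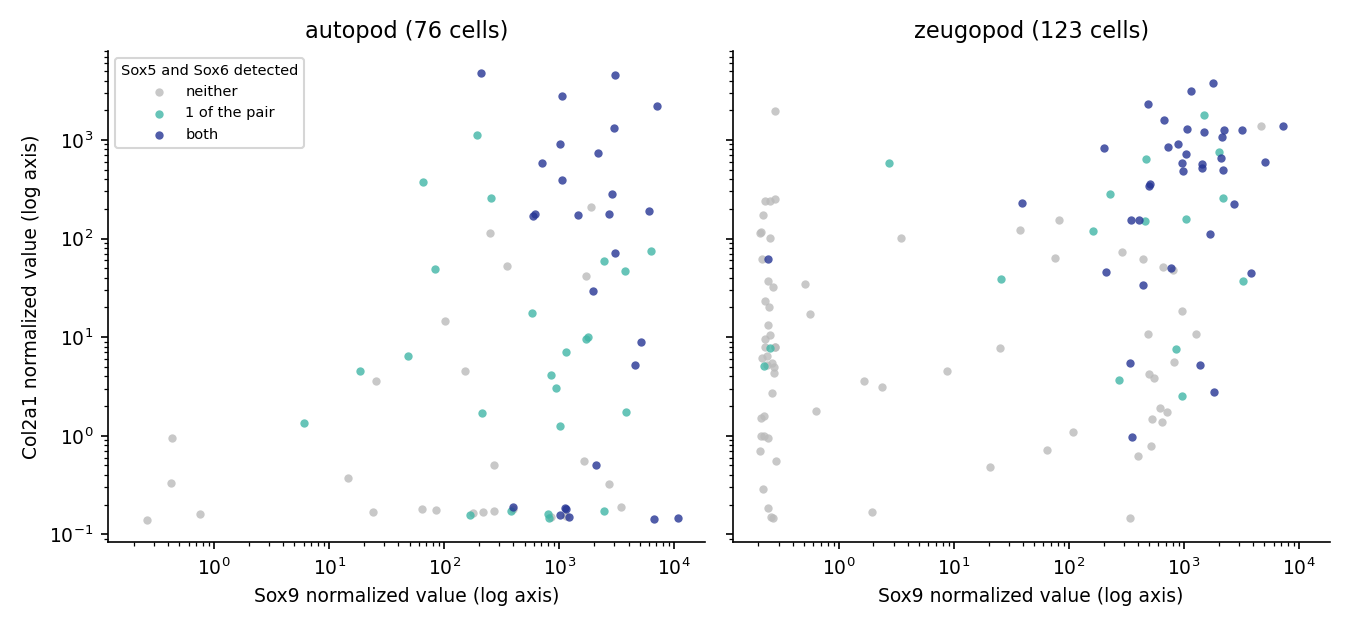
Normalized Col2a1 value against normalized Sox9 value (both log axes) in each autopod and zeugopod cell, coloured by whether Sox5, Sox6 or both had at least 5 reads; points were shifted slightly at random to part ties. Cells with both partners (dark) reach a Col2a1 value of 4907 among autopod cells and 3486 among zeugopod cells, and the column of points at the left of the zeugopod panel is the cells at the Sox9 floor.

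By level of Sox9, the median of Col2a1 was highest in the top class. In the zeugopod its median was 7.18 in cells without Sox9, 43.6 and 33.8 in the lowest and middle class, and 610.3 in the highest class, where all 26 cells had it. In the autopod it was 2.48, 2.31 and 40.6 from the lowest to the highest class, with Col2a1 detected in 13, 12 and 18 of 24 cells. The highest single autopod value of Col2a1, 4907, was nevertheless in a cell of the lowest Sox9 class.

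Rank correlations across cells are given as descriptions, since the cells of a group come from pooled limbs and share a run. In the zeugopod the ranks of the members went together: Spearman's rho of the normalized values over all cells was 0.63 for Sox9 and Sox5, 0.56 for Sox9 and Sox6 and 0.70 for Sox5 and Sox6. With Col2a1 it was 0.48 for Sox9, 0.57 for Sox5 and 0.57 for Sox6. In the autopod the values were lower, at 0.40, 0.43 and 0.36 within the trio and at 0.25, 0.30 and 0.41 with Col2a1. With runs pooled, the number of genes detected moved little with Sox9 (rho 0.06 in the autopod and -0.13 in the zeugopod) and inversely with Sox5 and Sox6 in the zeugopod (-0.25 and -0.28). In zeugopod NXT0142 alone it was -0.25 for Sox9 and -0.37 each for Sox5, Sox6 and Col2a1. In a partial rank correlation given the genes detected, Sox6 and Col2a1 had 0.27 there, beside 0.37 without that step. In zeugopod NXT0143 these values were 0.74 and 0.71.

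Within runs, the 6 pairs had rho of 0.37 to 0.69 in NXT0142 and of 0.49 to 0.76 in NXT0143 for the zeugopod, and of 0.21 to 0.51 in NXT0072 for the autopod. In the 17 autopod cells of NXT0143 the value was -0.04 for Sox9 and Col2a1, where it depended on the scale (0.18 on CPM, reads per 1000000 reads on genes, and 0.25 after thinning). For Sox5 and Sox6 it was -0.10 in these cells, and 0.21 in the 11 with Hoxd13. Sox5 and Sox6 each went with Col2a1, at 0.39 and 0.41 in the 17 cells and at 0.45 and 0.62 in the 11. Among the cells with Sox9 detected only, where its absence can no longer drive the ranks, rho with Col2a1 was 0.46 for Sox9, 0.53 for Sox5 and 0.62 for Sox6 in 79 zeugopod cells, and 0.20, 0.27 and 0.40 in 72 autopod cells. With the runs pooled in this way, Sox6 had the highest of the 3 values in both tissues. Over all cells of a run, Sox6 was highest in both tissues of NXT0143 (0.71 in the zeugopod, 0.41 in the autopod). It was lowest in zeugopod NXT0142, at 0.37 against 0.48 for Sox9 and 0.53 for Sox5. In autopod NXT0072 it was below Sox9, at 0.25 against 0.36. The differences between the genes were not tested.

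**Figure D4:**
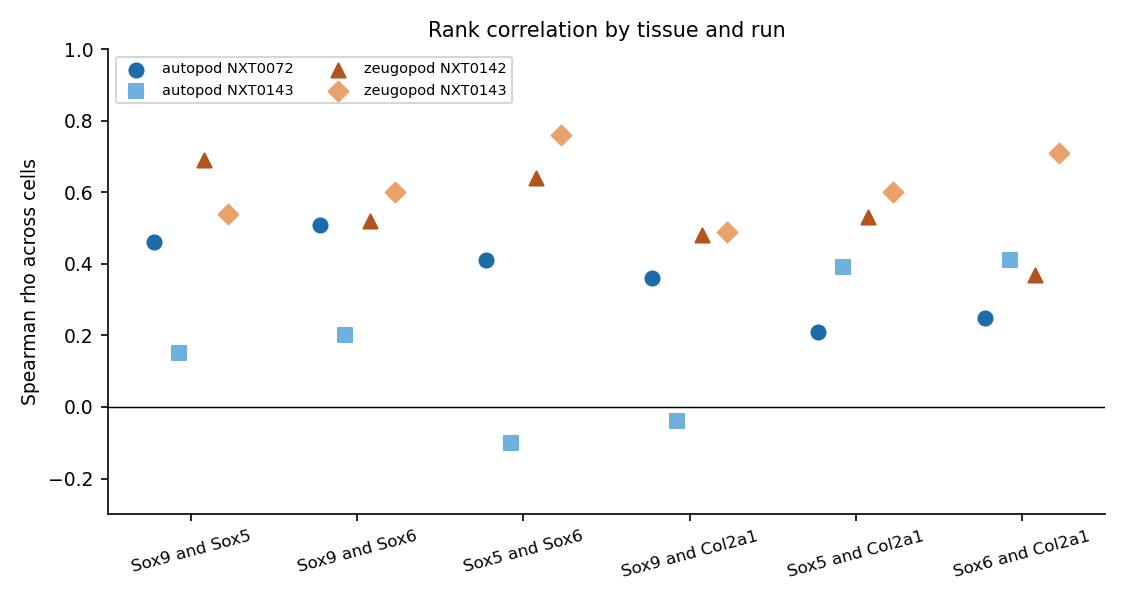
Spearman's rho across cells for each pair of Sox9, Sox5, Sox6 and Col2a1 in the 4 groups of cells by tissue and run. The zeugopod groups (triangles and diamonds) lie between 0.37 and 0.76, and the 17 autopod cells of NXT0143 (squares) give the only values below 0.

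Genes whose ranks were most like those of a member were looked for among 4880 genes, by the mean of rho over the 4 groups of tissue and run. For Sox9 these were Iqcf3 (0.74), Col9a1 (0.55), Fibin (0.52), Sox5 (0.46) and Sox6 (0.46), so both partners stood among the first 5, and Col2a1 came at rank 28 with 0.32. Col9a1, which encodes a chain of the fibril-associated cartilage collagen IX, had rho with Sox9 of 0.43 and 0.47 in the autopod runs and of 0.65 and 0.64 in the zeugopod runs. For Sox5 they were Iqcf3 (0.55), Col9a2 (0.49), Sox9 (0.46), Col9a3 (0.44) and Col2a1 (0.43). For Sox6 they were Vcan (0.54), Hey2 (0.51), Col9a2 (0.51), Wwp2 (0.49) and Col9a1 (0.46). Vcan encodes versican, a proteoglycan of the early mesenchymal matrix, and Hey2 a transcriptional repressor downstream of Notch. The median over all genes was 0.01 for Sox9, -0.02 for Sox5 and -0.04 for Sox6.

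Iqcf3, which encodes an IQ motif protein and lies on chromosome 9, was a low-count companion of Sox9. It had 865 reads over all cells, beside 861803 of Sox9, and at most 57 in a cell. None of the 48 cells without Sox9 had a read of Iqcf3, and 91.2% of the cells with at least 1000 Sox9 reads had one. Its rank correlation with Sox9 reached 0.93 in zeugopod NXT0142. The longest stretch that the annotated transcripts of Iqcf3 and Sox9 share on either strand is 22 bases, under the read length of 75. Whether its reads come from Iqcf3 RNA was not tested.

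Of 19 listed genes of cartilage matrix and SOX targets, 17 had a row and 12 passed the limit for listed genes, detection in 10% or more of autopod or of zeugopod cells. All 12 had a positive mean rho with each member, and the median of these means was 0.32 for Sox9, 0.35 for Sox5 and 0.40 for Sox6. Over all genes of the 25% limit the shares with a positive mean were 56%, 39.6% and 33%. The correlation was positive in all 4 groups for 8, 11 and 10 of the 12 genes, beside 8.93%, 4.32% and 3.36% of all genes. The most often detected were Col2a1 (155 cells), Col11a1 (40 autopod and 87 zeugopod cells), Wwp2 (93 cells) and Col9a1 (84 cells), with mean rho to Sox9 of 0.32, 0.22, 0.43 and 0.55.

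Several targets were detected in a larger share of the cells with all 3 genes than of those with Sox9 alone. Col9a2, another collagen IX chain, was detected in 32 of 36 zeugopod cells with all 3 genes and 10 of 29 with Sox9 alone, and in 14 of 27 and 0 of 21 autopod cells, where 0 allows a share of up to 14.3%. Wwp2, a ubiquitin ligase gene whose intron hosts the cartilage microRNA miR-140, was in 30 of 36 and 8 of 29 zeugopod cells and in 19 of 27 and 6 of 21 autopod cells. Acan, the gene of the large cartilage proteoglycan aggrecan, was in 14 of 36 and 0 of 29 zeugopod cells (0 allows up to 10.3%) and in 6 of 27 and 1 of 21 autopod cells. For Col9a1 the shares lay closer together in the autopod than in the zeugopod: 22 of 27 cells with all 3 genes and 12 of 21 with Sox9 alone had it, against 27 of 36 and 3 of 29 in the zeugopod. For Col11a1 the autopod shares were close, with 16 of 27 cells with all 3 genes and 11 of 21 with Sox9 alone. In the zeugopod they were 33 of 36 and 17 of 29. These shares were not split by run. In the autopod, NXT0143 supplied 9 of the 27 cells with all 3 genes and 2 of the 21 with Sox9 alone. Run is thus partly mixed with combination there. The contrast of these 2 combinations was not computed over all genes, so no background share stands beside it. Matrix genes of later cartilage were below the limit, with Matn1 in 4 cells, Comp in 2, Matn3 in 9 and Hapln1 in 11.

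**Figure D5:**
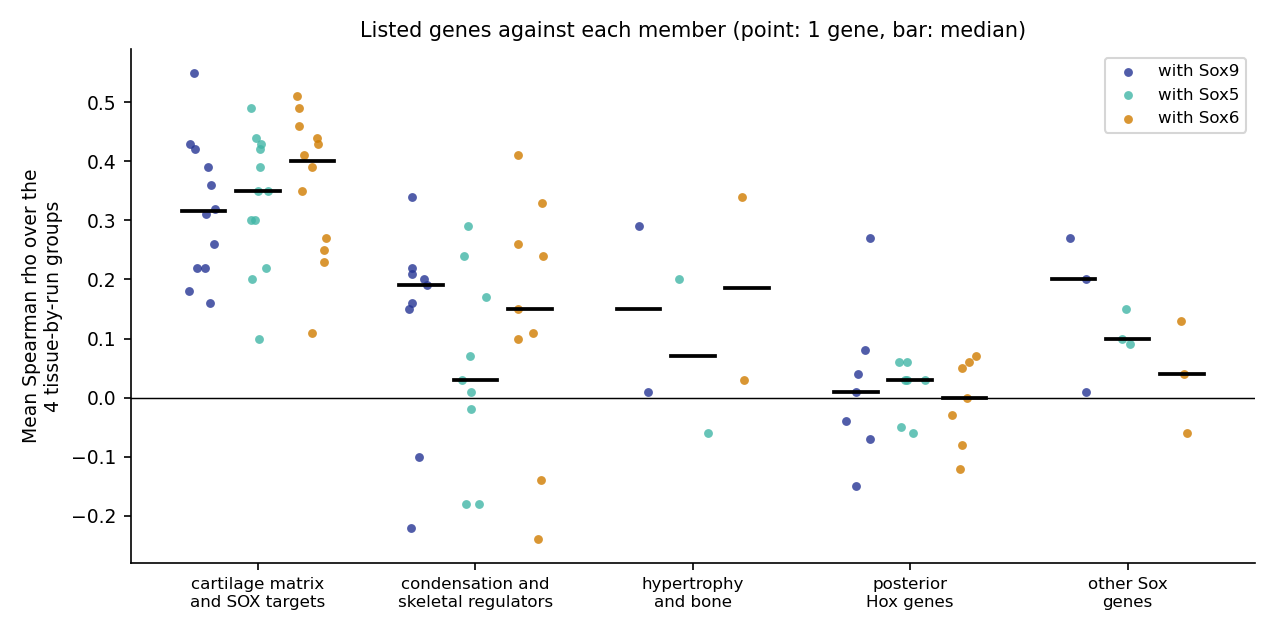
Mean Spearman's rho over the 4 groups of tissue and run for each listed gene with Sox9, Sox5 or Sox6 (points: 1 gene each, bars: medians). All 12 cartilage matrix and SOX target genes lie above 0 for each member, with medians of 0.32, 0.35 and 0.40, whereas the 7 Hox genes lie on both sides of 0, from -0.15 to 0.27 for Sox9.

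Of 11 regulators of condensation and of the skeleton 9 passed the limit, with median mean rho of 0.19 for Sox9, 0.03 for Sox5 and 0.15 for Sox6. The most often detected were Ncam1 (135 cells), Foxc1 (53), Cdh2 (42) and Bmpr1b (40). Bmpr1b, the BMP receptor of prechondrogenic cells, had mean rho of 0.34, 0.24 and 0.33 with Sox9, Sox5 and Sox6, and Foxc1, a forkhead factor of skeletal progenitors, 0.21, 0.29 and 0.41. The adhesion genes went the other way: Ncam1 had -0.22, -0.18 and -0.24 and was negative in all 4 groups for each member, and Cdh2 (N-cadherin) had -0.10, -0.18 and -0.14. Ncam1 was detected in 36 of 41 zeugopod cells with none of the trio and in 22 of 36 with all 3.

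Of 5 genes of hypertrophy and bone 2 passed, Mef2c (42 cells) and Pth1r (38 cells), with mean rho to Sox9 of 0.29 and 0.01. Ihh was detected in 3 cells, Sp7 in 1 and Col10a1, the collagen of hypertrophic cartilage, in 16. Of the 7 posterior Hox genes all passed, and the median of the mean rho was 0.01, 0.03 and 0.00 with Sox9, Sox5 and Sox6. Those most often detected were Hoxd11 (165 cells), Hoxd10 (43 autopod and 72 zeugopod cells), Hoxd13 (66) and Hoxa13 (48), and the first 2 had mean rho to Sox9 of 0.08 and 0.04. Hoxd13 and Hoxa13 were detected in 1 and 3 zeugopod cells, so their zeugopod ranks are mostly ties, which that median includes. Within the autopod, Hoxd13 and Sox9 had rho of 0.25 in NXT0072 and 0.43 in NXT0143, and Hoxa13 and Sox9 0.08 and -0.04.

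Of 16 other Sox genes with a row, 3 passed: Sox11 in 195 cells, Sox4 in 162 and Sox12 in 58 autopod and 67 zeugopod cells. These are SoxC genes, factors of progenitor cells, and Sox11 was read in nearly every cell, whatever its combination of the trio. Their mean rho with Sox9 was 0.20, 0.27 and 0.01, and for Sox11 and Sox4 it was positive in all 4 groups, beside the 8.93% of all genes given above. With Sox5 the means were 0.10, 0.09 and 0.15, and with Sox6 0.13, 0.04 and -0.06. The nearest paralogs were rarely detected: Sox8 and Sox10, of the same SoxE group as Sox9, in 7 cells each, and Sox13, the remaining SoxD gene, in 8 cells.

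Tendon and interdigit markers were also read in cells with Sox9. At least 2 of 4 tendon markers were detected in 28 zeugopod cells, 20 of the 79 with Sox9 and 8 of the 44 without, and in 2 autopod cells. The summed tendon marker level in zeugopod cells ran from 0 to 3110 CPM with Sox9, and from 0 to 2513 without it, with medians of 14.2 and 12.7. Scx, the factor of tendon progenitors, was detected in 27 of 79 zeugopod cells with Sox9 (34.2%, 23.9 to 45.7), in 8 of 44 without (18.2%, 8.19 to 32.7) and in 9 of 36 with all 3 genes (25%, 12.1 to 42.2). At least 2 of 3 interdigit markers were detected in 17 of 76 autopod cells and in 1 zeugopod cell. All 17 had Sox9, as did 94.7% of all autopod cells. The summed interdigit level in autopod cells with Sox9 ran from 0 to 9101 CPM with a median of 40.7. The part of these cells in the Sox9 results was not tested.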

How the data were processed

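RNA of single cells was amplified with the SMARTer kit and made into Nextera XT libraries without molecular identifiers or strand. The authors mapped 75-base reads uniquely to GRCm38 (mm10) with Bowtie2 in local mode and deposited raw counts per gene for 225 cells with 92 spike-ins, and a normalized signal table of 10948 genes in 199 cells. Per the methods, counts were scaled by a spike-in size factor and corrected for gene length. Going by the values, a constant was added to the scaled count before the division by length, which sets the floor. Size factors were centred within the batch of origin, which the methods do not define. This limits comparisons of level between batches, and runs or tissues may be such batches. Spike-in rows were left out here. No 2 cells had identical counts, and no doublet caller was run, so a doublet could join genes of 2 cells.

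Detection meant at least 5 reads. Differences used log2(signal + 1) from the deposited signal, and ranks used the signal itself. Gene length was taken as 1 over the floor, and signal times length minus 1 as the scaled count. In the 157 cells with at least 100 reads of a member or Col2a1, reads per scaled count differed between such genes by at most 1.17%. A cell with only 1 such gene shows no difference by construction. Genes were named by fixed rules: the members and Col2a1, up to 4 of each list by cells detected, and the 5 genes with the highest mean rho to each member. A few others were named after their values were seen (Acan, Scx and genes below the limits). The members, lists and rules were chosen with earlier results of these data known. Counts were thinned without replacement (seed 42). Coordinates and transcript sequences are those of GENCODE vM21. Scripts ran in Python 3.11.15 with numpy 2.4.6, scipy 1.17.1 and pandas 2.3.3, and were tested on simulated data. Alternatives were other pseudocounts, CPM, thinning, other detection limits and single runs.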

Additional observations from a re-analysis of the deposited data

Results flagged for a closer look

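Members of the trio were also read in cells that the authors' filter removed and that enter no comparison above. Among these 26 cells, 20 autopod and 6 zeugopod cells with 17 to 2926028 reads on genes, Sox9 had at least 5 reads in 5 cells and Sox6 in 2 cells, and Sox5 had none. A removed autopod cell of NXT0143 held 39334 Sox9 reads, 1.34% of its reads, with 1066 genes detected and no read of Sox5, Sox6 or Col2a1. The 3 removed autopod cells of NXT0072 had 204, 342 and 432 Sox9 reads, and that with 342 also had 58 of Sox6. The removed zeugopod cell had 48 Sox9 reads and 22 Sox6 reads.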

How the results depend on the processing

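Of the values recomputed for 19 results, 89 stayed within the counting interval or the spread between runs, 26 moved further and 3 turned sign, and 16 of all these were chosen after seeing the data. The spread came from single runs that are themselves among the alternatives. It was 1.35 and 1.42 for the Sox5 and Sox6 differences, but 0.01 for Sox9 and Col2a1 ranks in the zeugopod. These counts thus depend on the width of that spread and do not measure robustness. The Sox9 difference was 3.72 with a pseudocount of 0.1, 2.19 with 10, 3.28 on log2(CPM + 1), 3.33 without autopod cells lacking Hoxd13 and 3.38 without them in NXT0143, and stayed past 1 log2 unit throughout. In NXT0143 alone the Sox5 and Sox6 differences were 2.24 and 2.38, the share of autopod cells with all 3 genes was 52.9%, and that of autopod Sox9 cells with Col2a1 was 82.4%, and without the autopod cells lacking Hoxd13 these shares were 54.5% and 72.7%. With detection at a normalized value of 5, all 3 genes were found in 23.7% of autopod and 18.7% of zeugopod cells, and Col2a1 in 76% of zeugopod Sox9 cells. That last share was 97.7% at 1 read and 76.7% after thinning. The rank correlation of Sox9 and Col2a1 in the zeugopod was 0.49 on CPM, after thinning and in NXT0143, and 0.47 given genes detected. The correlation turned negative in the 17 autopod cells of NXT0143 for Sox9 and Col2a1 (-0.04, and -0.01 in the 11 with Hoxd13, but 0.18 on CPM and 0.25 after thinning) and for Sox5 and Sox6 (-0.10, but 0.21 in the 11). The causes were not tested beyond the lower depth that thinning sets. No paired analysis was possible because each tissue is 1 pooled sample and no test was run.

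With 1 pool per tissue, spread between embryos is unknown, and autopod NXT0072 and zeugopod NXT0142 confound tissue with run. Reads without molecular identifiers are not independent molecules, so intervals cover counting error only. Whether an undetected gene was missed at capture was not tested.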
